A study of Homo sapiens with 4 samples.

Results

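The genes described here are the long and small non-coding RNA genes that were listed as recovered with a YTHDF3 antibody. They were chosen by the biotype that the deposited tables give for each gene: every gene that was neither protein-coding nor a pseudogene was taken, except PVT1 and RNU1-106P. This gave 53 of the 3905 genes listed in either table, of which 37 were listed in SiHa, 25 in the YTHDF3 knockout and 9 in both. SiHa is an established human cervical squamous carcinoma line. In RNA immunoprecipitation followed by sequencing (RIP-seq), RNA bound to a protein is pulled down with an antibody (the IP). It is set against total RNA taken without the pull-down step (the input). The study had 4 libraries, an IP and an input from SiHa and an IP and an input from SiHa cells labelled as YTHDF3 knockout, with 1 library per group. No value here therefore has a replicate error, and no test between the cell lines was possible. The labels do not say whether the knockout is 1 clone, nor give a treatment, a time or a non-specific antibody control. In the knockout the antibody's target should be missing, so recovery there cannot be read as binding by YTHDF3. Dependence on YTHDF3 was not tested for any gene listed here, in SiHa or in both cell lines.

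YTHDF3 is a cytoplasmic reader protein that binds N6-methyladenosine (m6A), a methyl mark on adenosines that is set on messenger RNAs and on many long non-coding RNAs. Long non-coding RNAs are spliced and polyadenylated like messenger RNAs in many cases, and act without being translated. The small RNA classes differ from them: microRNAs are cut from hairpins and silence messenger RNAs, small nucleolar RNAs (snoRNAs) and small Cajal body RNAs (scaRNAs) guide chemical changes of ribosomal and spliceosomal RNAs in the nucleus, and U2, 5S and Y RNAs are structured RNAs of the spliceosome, the ribosome and Ro particles. The libraries were made with a kit for messenger RNA, per the labels' protocols, so for a small RNA gene the transcript that its reads came from is not known.

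The label of the set holds with exceptions. Of the 53 members, 36 had a long RNA biotype, 14 a small RNA biotype and 3 another. Among these 3, IGLV5-52 is an immunoglobulin variable segment, which is a part of a coding gene, and AC005514.1 and AC092611.3 have the biotype TEC, which Ensembl gives to transcripts that still need experimental proof. The 3 members with the biotype rRNA (RNA5SP174, RNA5SP175 and RNA5SP283) are described in the same tables as pseudogenes of 5S ribosomal RNA. Clone-based names such as AC073896.4 belonged to 21 members, and no function is given for these. A RefSeq gene of GRCh38.p14 was found for 29 of the 53, 28 by symbol and 1 by an older symbol.

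Mature sequences are shown for the microRNA genes, since MIR1244-2 had the highest fold of the set in SiHa and MIR4767 was listed in both cell lines. RefSeq's table held a mature form for 3 of the 6 microRNA members, MIR1244-2 (chr5:118974640-118974665, plus strand), MIR1282 (chr15:43793732-43793751, minus strand) and MIR4767 (chrX:7147869-7147891, plus strand). They are written 5′ to 3′ with the seed, bases 2 to 8, in capitals.
hsa-miR-1244: aAGUAGUUgguuuguaugagaugguu
hsa-miR-1282: uCGUUUGCcuuuuucugcuu
hsa-miR-4767: cGCGGGCGcuccuggccgccgcc
The 3 seeds all differed. The G and C share of the mature form was 34.6% in miR-1244, 40.0% in miR-1282 and 91.3% in miR-4767. The other 3 microRNA members were MIR1206, MIR3648-1 and MIR3687-1.

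The deposited tables hold, for each gene, a level in the IP and in the input, a log2 fold enrichment of IP over input, a p-value and an adjusted p-value. The level is in a unit that the sources do not name, and the depth of the libraries is unknown. Each log2 fold equals log2 of the ratio of both levels, IP to input, to which a constant was added (1.01 for SiHa, 0.81 for the knockout). Genes with a log2 fold under 1 or a p-value above 0.05 were not in the tables. Of the genes tested, 27.0% of 13529 were listed for SiHa and 21.2% of 11034 for the knockout, and the biotypes of the unlisted genes are not known here. The columns taken as the IP have names that lack the word. The name of the knockout IP column does not match its sample's title in the lane it gives. The title of the SiHa IP gives no lane. YTHDF3 itself was listed in SiHa, with a level of 25.8 in the IP and 11.7 in the input, and not in the knockout, where its level is unknown for that reason. Of 8 epithelial and squamous markers 6 were listed in SiHa and 1 in the knockout. Of 11 markers of fibroblasts, leukocytes, endothelium and neurons only the neuronal MAP2 was listed, in both. These counts reflect enrichment over input and not expression, so an unlisted marker may still be expressed. Neither the identity of the cells nor a change of it is read from them. For scale, the knockout list held 57.1% of the whole SiHa list.

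Non-coding genes made up a like part of both lists, with different counts per biotype. The 37 members in SiHa were 1.01% of the listed genes and the 25 in the knockout 1.07%. Long RNA biotypes accounted for 28 of the 37 in SiHa and 12 of the 25 in the knockout, and small RNA biotypes for 6 and 12. Long intergenic RNAs (lincRNAs) numbered 11 in SiHa and 5 in the knockout, and antisense RNAs 9 and 4. The scaRNAs SCARNA5 and SCARNA21, the snoRNA SNORD62B, a U2 copy and a Y RNA copy were listed in the knockout only. The input levels of the U2 and Y RNA copies were very low, at 1.35 and 1.001. Of the 25 knockout members 16 were not listed in SiHa, against 257 of all 2340 genes listed in the knockout. The difference in make-up between the tables was not tested, and how many genes of each biotype were tested is not known.

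**Figure D1:**
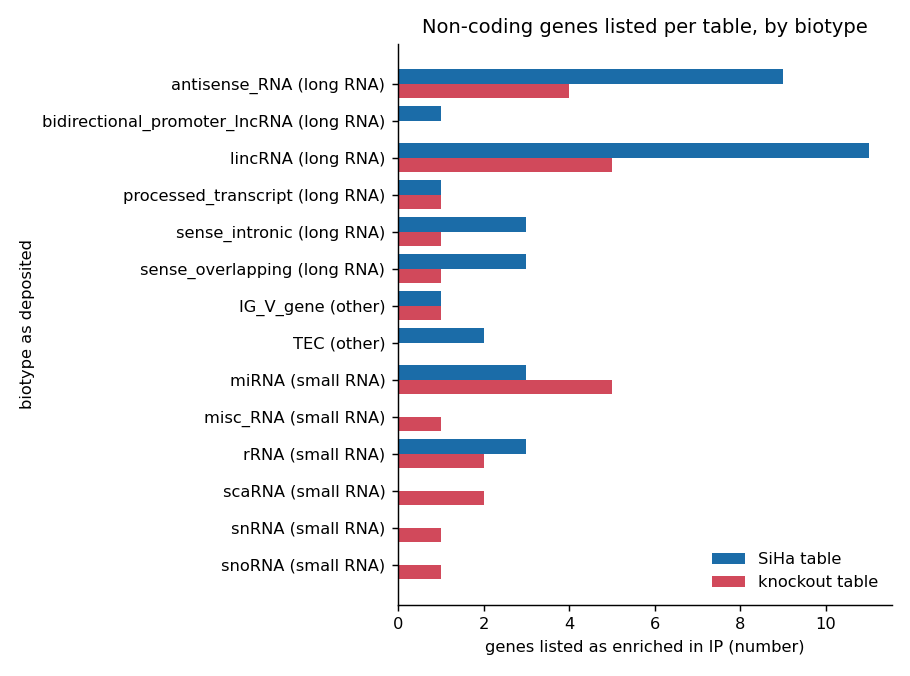
Number of non-coding genes listed as enriched in the IP, by the biotype in the deposited tables, with blue bars for the SiHa table and red bars for the knockout table. The lincRNA bars stand at 11 and 5 and the antisense RNA bars at 9 and 4, while the scaRNA, snoRNA, snRNA and misc_RNA bars are present in the knockout only.

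The members' fold enrichment lay close to that of all listed genes in SiHa and above it in the knockout, where the order turned for genes of higher level. In SiHa the median log2 fold of the 37 members was 2.01, against 2.04 for all 3648 listed genes. In the knockout it was 2.74 for the 25 members, against 2.43 for all 2340. Among knockout genes with a level at or above the table's median, it was 2.60 for the members and 2.84 for all. Without the constant, log2 of IP over input level had a median of 1.001 in SiHa members against 1.04 in all listed genes, and of 1.92 against 1.61 in the knockout. The small RNA members had a higher median than the long ones in both tables: 2.75 against 1.94 in SiHa and 3.04 against 2.54 in the knockout. Their median input level was lower, at 3.38 against 7.16 in SiHa and 2.53 against 6.72 in the knockout. At very low input levels only large folds were listed, and the part of input level in this class difference was not tested. A log2 fold of at least 2 was reached by 20 of 37 members in SiHa and by 17 of 25 in the knockout, where the same limit was passed by 14.2% and 14.1% of all genes tested, and by 52.5% and 66.6% of all genes listed. Among the listed genes the members' shares, 54.1% and 68.0%, were thus near the background.

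Levels of the members were low for these tables. The median IP level was 10.8 in SiHa members and 21.2 in all listed genes, and 14.4 against 23.8 in the knockout. The median input level was 6.64 against 10.7 in SiHa and 4.67 against 8.08 in the knockout. Whether these levels are per length is unknown, so they are not read as abundance between genes. Only 10 of 37 members in SiHa and 7 of 25 in the knockout were as high as the median level of their table or higher, taking for each gene the larger of its IP and input levels. An input level under 2 was found for 6 SiHa members (16.2%, against 2.82% of all listed genes) and for 7 knockout members (28.0%, against 6.15%). At such levels only large folds were listed: the lowest log2 fold among all genes with an input level under 2 was 2.34 in SiHa and 2.19 in the knockout, so the folds of these members had to be high to be seen. The authors' adjusted p-value was above 0.05 for 16 of the 37 members in SiHa (43.2%, against 19.1% of all listed genes) and for 7 of the 25 in the knockout (28.0%, against 19.6%), and the genes with an adjusted p of at most 0.05 were 21.8% and 17.0% of all tested.

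**Figure D2:**
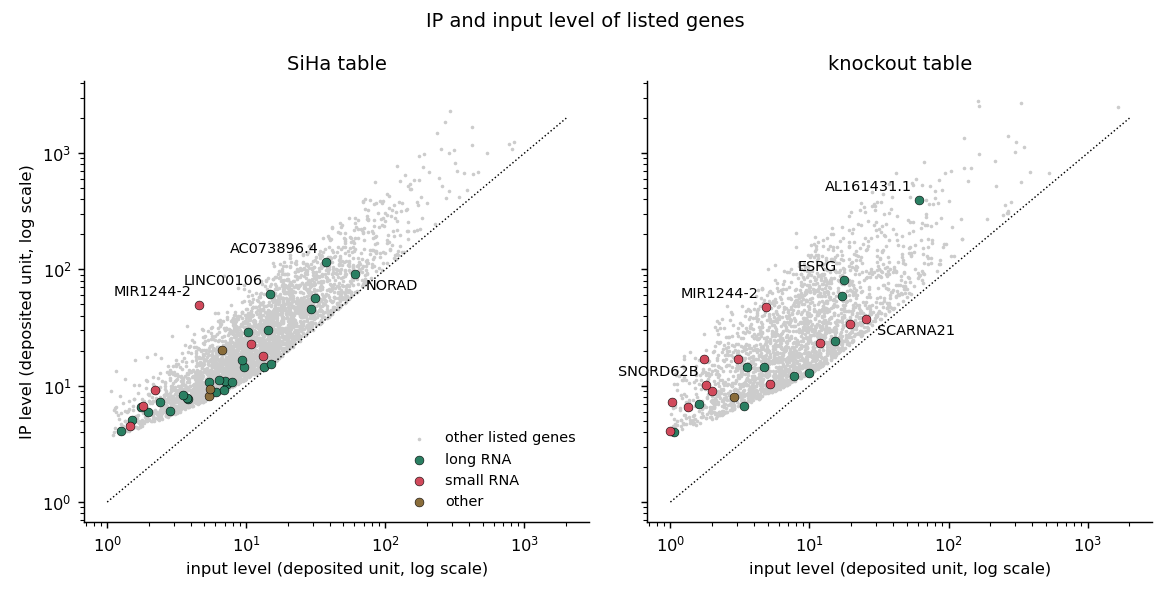
IP level against input level for every gene listed in each table, on log axes in the deposited unit, with non-coding genes coloured by class and other genes in grey. The dotted line marks equal levels. All members lie above it, as do 3645 of all 3648 genes listed in SiHa and all 2340 in the knockout. Genes under the fold limit were not listed. Most members lie in the lower left where both levels are small. AL161431.1 in the knockout has the highest IP level of the members drawn, at 396. One lincRNA listed in both tables is not drawn.

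Of the lincRNAs with values in SiHa, LINC00106 had the highest fold. LINC00106 (ENSG00000236871, chromosome X, 1397025 to 1399412), a little studied lincRNA of the pseudoautosomal region, stood at 14.7 in the input and at 61.0 in the IP. For it the authors' deposited table gives a log2 fold of 3.06 (p = 2.79e-17), higher than that of 92.6% of the listed genes. It is missing from the knockout list. The next folds were those of AL023284.4 and AC008392.1, 2.75 and 2.59 by the authors' deposited table, but their input levels were only 1.50 and 1.98 and their adjusted p-values 0.0819 and 0.0622.

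NORAD had the highest levels of the lincRNAs named in SiHa, with a modest fold. NORAD (ENSG00000260032, chromosome 20, 36045618 to 36050960), a cytoplasmic RNA that holds many binding sites for PUMILIO proteins and guards chromosome stability, stood at 60.7 in the input and at 92.1 in the IP. In the authors' deposited table this gave a log2 fold of 1.61 (p = 2.14e-12), above 23.8% of the listed genes. It is missing from the knockout list. FENDRR (ENSG00000268388), a lincRNA next to FOXF1 that acts in heart and body wall development in the mouse, was at 5.40 in the input and 10.8 in the IP, and the authors' deposited table gives a log2 fold of 2.01 (p = 0.00508). URB1-AS1, whose span begins 121 bases from that of URB1, stood at 2.81 and 6.11, and the authors' deposited table gives a log2 fold of 2.13, with an adjusted p of 0.105.

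LINC00662 was listed in both cell lines, with a fold in the lowest part of the SiHa table. In SiHa it stood at 13.4 in the input and at 14.5 in the IP, and the log2 fold in the authors' deposited table was 1.12 (p = 0.0354). In the knockout the input was 3.39, the IP 6.72, and the authors' deposited table gives a log2 fold of 1.80 (p = 0.0491). Its levels were thus lower in both knockout libraries, and its adjusted p-value was above 0.05 in both tables (0.124 and 0.206). For the other SiHa lincRNAs with values, AC026401.3, AC245041.1 and AC073046.1, the authors' deposited table gives 1.47, 1.86 and 2.08 as log2 folds. A further lincRNA was listed in both tables and is counted throughout, and its values are not given here.

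Of the lincRNAs in the knockout, AL161431.1 stood apart by its level. AL161431.1 (ENSG00000275216) stood at 61.7 in the input and at 396 in the IP, the highest level of the members with values in either table. For it the authors' deposited table gives a log2 fold of 3.50 (p = 7.72e-106), above 81.8% of the genes listed in the knockout. It was not listed in SiHa. OLMALINC (ENSG00000235823), named for oligodendrocyte maturation, stood at 3.56 in the input and 14.4 in the IP, and the authors' deposited table gives it a log2 fold of 2.82 (p = 0.000160). LINC01133 (ENSG00000224259), a lincRNA studied in several carcinomas, stood at 4.67 in the input and 14.5 in the IP, and the authors' deposited table gives it a log2 fold of 2.45 (p = 0.000441). Neither was listed in SiHa. For AL161431.1, OLMALINC and LINC01133 the SiHa level is not known, and whether they differed between the cell lines cannot be read from the tables.

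The antisense RNAs were mostly weakly enriched. Their 9 members in SiHa had a median log2 fold of 1.67 and the 4 in the knockout a median of 2.11, both below the medians of all listed genes. FGD5-AS1 (ENSG00000225733, chromosome 3, 14942779 to 14948441, minus strand), an abundant antisense-named RNA whose own span overlaps the start of NR2C2 on the plus strand, was the only one listed in both. In SiHa it stood at 31.2 in the input and at 56.9 in the IP, and the authors' deposited table gives a log2 fold of 1.87 (p = 7.94e-10). In the knockout the levels were 15.2 and 24.1, and the authors' deposited table gives a log2 fold of 1.47 (p = 0.00126). Both of its levels were lower in the knockout, while the fold differed by 0.40 on the log2 scale. NR2C2, a nuclear receptor gene, was itself listed in SiHa at a log2 fold of 2.28 and not in the knockout. Whether counting used strand is not given in the sources used here, so reads from an antisense gene and its partner cannot be told apart.

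The remaining 8 antisense RNAs of SiHa were not listed in the knockout. PP7080 (ENSG00000188242), which RefSeq calls SLC9A3-OT1 and places inside SLC9A3, stood at 29.0 in the input and 45.3 in the IP, and the authors' deposited table gives it a log2 fold of 1.65 (p = 5.13e-07). BACE1-AS (ENSG00000278768), which pairs with and stabilises the messenger RNA of the beta-secretase BACE1, had levels of 9.71 and 14.5, and the authors' deposited table gives a log2 fold of 1.59 (p = 0.00569). NNT-AS1, ASMTL-AS1 and HOXA10-AS followed, and the authors' deposited table gives them log2 folds of 1.50, 1.55 and 1.67, each with an adjusted p above 0.05 (0.0940, 0.122 and 0.0528). The partner genes BACE1, NNT, ASMTL, HOXA10 and SLC9A3 were not listed in either table. GSEC (ENSG00000280832), an RNA named for its G-quadruplex sequence, was the highest of these, at levels of 2.38 and 7.28, and the authors' deposited table gives a log2 fold of 2.62 (p = 0.00693). For AF001548.2 and AC092611.2 the authors' deposited table gives log2 folds of 2.01 and 2.07.

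In the knockout 3 antisense RNAs were listed that were not listed in SiHa. AL445524.1 stood at 9.87 in the input and 13.0 in the IP, and the authors' deposited table gives it a log2 fold of 1.21, the lowest of all members there (p = 0.0419). AC006329.1 stood at 1.61 in the input and 7.02 in the IP, and AL132780.2 at 1.06 and 4.02, and the authors' deposited table gives log2 folds of 2.94 (p = 0.00707) and 2.74 (p = 0.0493). The adjusted p-values of AL445524.1 and AL132780.2 were 0.182 and 0.206.

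RNAs that overlap a coding gene on its own strand (sense overlapping) or lie in an intron of one (sense intronic) share sequence with that gene's precursor or mature RNA. AC073896.4 (ENSG00000258199, sense overlapping) was listed in both tables with nearly the same fold. In SiHa it stood at 37.3 in the input and at 117 in the IP, the highest IP level among the SiHa members with values, and the authors' deposited table gives a log2 fold of 2.65 (p = 1.44e-27). In the knockout the levels were 17.0 and 58.7, and the authors' deposited table gives a log2 fold of 2.60 (p = 2.72e-13). Both levels were lower in the knockout, with log2 ratios of knockout to SiHa of -1.13 for the input and -0.99 for the IP. AC004656.1 and AC125257.1, of the same biotype, were listed in SiHa only, and the authors' deposited table gives them log2 folds of 2.48 and 1.83.

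ESRG was the strongest sense intronic member by level. ESRG (ENSG00000265992, chromosome 3, 54632124 to 54639857), a lncRNA known from human embryonic stem cells where it comes from an endogenous retrovirus of the HERV-H type, lies inside the calcium channel subunit gene CACNA2D3. In the knockout it stood at 17.7 in the input and at 81.0 in the IP, and the authors' deposited table gives a log2 fold of 3.01 (p = 2.2e-20). It was not listed in SiHa, and CACNA2D3 was listed in neither table. The 3 sense intronic members of SiHa, AC023043.4, AL049840.3 and AL606834.3, had input levels of 15.0, 3.53 and 1.74, and the authors' deposited table gives them log2 folds of 1.05, 2.23 and 2.93. The fold of AC023043.4 was the lowest of the SiHa members. AC068152.1 in SiHa and LINC01278 in the knockout, both processed transcripts, had log2 folds of 1.43 and 1.46 by the authors' deposited tables, and the bidirectional promoter RNA AP001372.2, with an input level of 1.26, had one of 2.70 in SiHa.

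**Figure D3:**
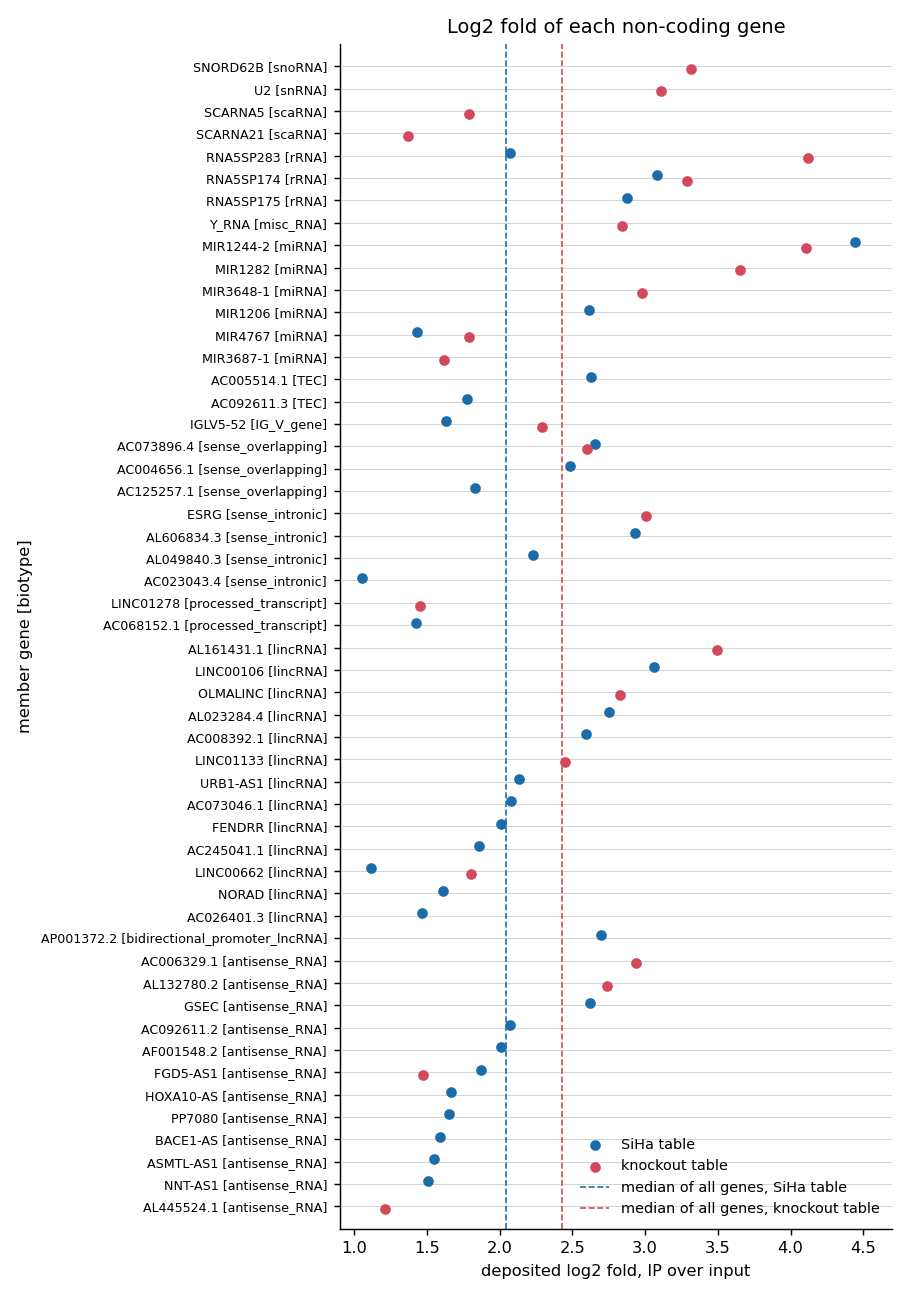
Deposited log2 fold of IP over input for each non-coding gene with values, grouped by biotype, with blue points for the SiHa table and red points for the knockout table. Dashed lines mark the medians of all listed genes of each table, members or not, at 2.04 and 2.43. Most antisense RNAs lie to the left of their line, and MIR1244-2 has the highest SiHa fold at 4.44.

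Among the small RNA genes MIR1244-2 had the highest fold of the members in SiHa. MIR1244-2 (ENSG00000283498, chromosome 5, 118974586 to 118974670, plus strand) is the source of miR-1244 printed above. In SiHa it stood at 4.57 in the input and at 49.6 in the IP, and the authors' deposited table gives a log2 fold of 4.44 (p = 3.04e-18), rank 3 of all 3648 genes. In the knockout the levels were 4.85 and 47.5, and the authors' deposited table gives a log2 fold of 4.10 (p = 1.31e-15), rank 162 of 2340. The levels differed little between the cell lines, with log2 ratios of knockout to SiHa of -0.06 in the IP and 0.09 in the input.

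The hairpin of MIR1244-2 is not a sequence of its own. RefSeq's table holds 4 copies, MIR1244-1 to MIR1244-4 on chromosomes 2, 5 and 12, and their hairpins of 85 bases were identical. MIR1244-2 lies inside PTMAP2, a processed pseudogene of PTMA, the gene of the acidic nuclear protein prothymosin alpha. PTMA itself was listed in SiHa at 188 in the input and 762 in the IP, and the authors' deposited table gives a log2 fold of 3.03. In the knockout PTMA stood at 64.2 and 534, and the authors' deposited table gives a log2 fold of 3.87. For PTMAP2 the authors' deposited tables give log2 folds of 2.97 in SiHa and 4.31 in the knockout. Its knockout input level was 1.10, close to 1.001, the lowest listed there. PTMAP4 and PTMAP5, also named as PTMA pseudogenes, were listed in SiHa only, at deposited log2 folds of 3.65 and 3.25. PTMA and PTMAP2 therefore had the higher fold in the knockout and MIR1244-2 in SiHa, on the deposited scale and without a test. Reads may be split between such copies, so the value of MIR1244-2 is uncertain, and of the 4 copies only this one was listed.

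**Figure D4:**
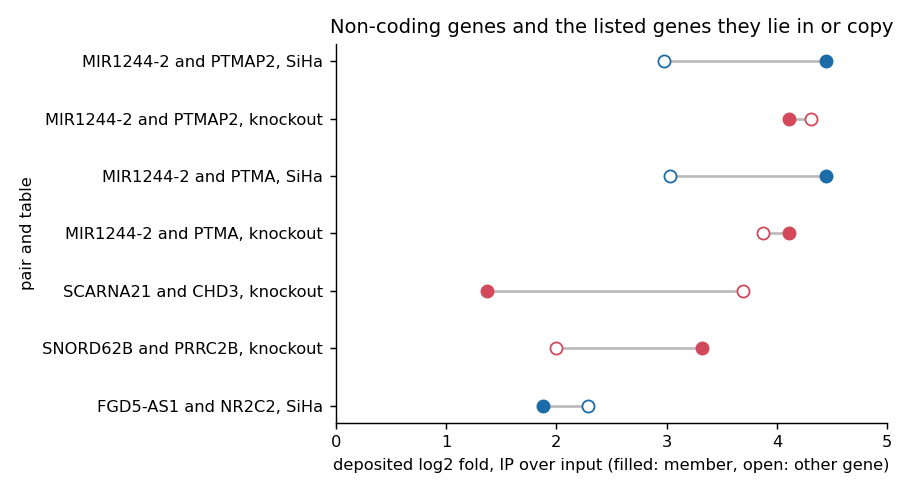
Deposited log2 fold of 4 non-coding genes (filled) and of listed genes that they lie in, overlap or copy (open), in SiHa (blue) and the knockout (red). MIR1244-2 stands at 4.44 in SiHa against 3.03 for PTMA, SCARNA21 at 1.37 against 3.69 for CHD3, and SNORD62B at 3.32 against 2.00 for PRRC2B.

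The other microRNA genes had no common pattern. MIR4767 (ENSG00000264268, chromosome X, 7147860 to 7147937), which lies where PUDP and STS overlap at their starts, was listed in both tables. In SiHa it stood at 13.3 in the input and at 17.8 in the IP, and the authors' deposited table gives a log2 fold of 1.43 (p = 0.00454). In the knockout the levels were 11.9 and 23.4, and the authors' deposited table gives a log2 fold of 1.79 (p = 0.000258). Neither PUDP nor the steroid sulfatase gene STS was listed. MIR1206 (ENSG00000283200), which lies inside PVT1, was listed in SiHa only, at levels of 1.46 and 4.46, and the authors' deposited table gives a log2 fold of 2.61 (adjusted p = 0.122). PVT1 was listed in the knockout only, where the authors' deposited table gives it a log2 fold of 3.41.

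The knockout table alone held 3 microRNA genes. MIR1282 (ENSG00000221792, chromosome 15, 43793659 to 43793759, minus strand), which lies inside SERF2 but on the opposite strand, stood at 1.02 in the input and 7.30 in the IP, and the authors' deposited table gives it a log2 fold of 3.65 (p = 0.00257). Its input was close to 1.001, the lowest input level of any gene listed in the knockout. MIR3648-1 (ENSG00000275708), which lies inside the 45S ribosomal RNA unit RNA45SN2, had levels of 2.00 and 8.97, and the authors' deposited table gives a log2 fold of 2.98 (p = 0.00219). MIR3687-1 (ENSG00000277437) had levels of 19.4 and 34.0, and the authors' deposited table gives a log2 fold of 1.62 (p = 4.13e-05). SERF2 and RNA45SN2 were not listed. The ribosomal RNA unit is present in many near-identical copies, so the value of MIR3648-1 is uncertain.

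The guide RNAs were listed in the knockout only, and for SCARNA21 and SNORD62B the gene they lie in was listed too. SCARNA21 (ENSG00000252835, chromosome 17, 7906123 to 7906260) lies inside CHD3, which encodes a chromatin remodeller of the NuRD complex. It stood at 25.6 in the input and at 37.6 in the IP, and the authors' deposited table gives a log2 fold of 1.37 (p = 0.000137), above 9.87% of the listed genes. CHD3 stood at 25.1 and 185, and the authors' deposited table gives log2 folds of 3.69 there and of 2.63 in SiHa. SCARNA21 therefore had the lower fold of this pair, at nearly the same input level.

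SNORD62B showed the opposite order. SNORD62B (ENSG00000231587, chromosome 9, 131490486 to 131490571), a C/D box snoRNA, of the class that guides 2'-O-methylation, lies inside PRRC2B. It stood at 1.80 in the input and at 10.2 in the IP, and the authors' deposited table gives a log2 fold of 3.32 (p = 0.000598). PRRC2B stood at 22.0 and 49.9 in the knockout, and the authors' deposited tables give log2 folds of 2.00 there and of 2.15 in SiHa. SCARNA5 (ENSG00000252010, chromosome 2, 233275726 to 233276003) lies inside the autophagy gene ATG16L1, which was not listed. Its levels were 5.23 and 10.3 and the authors' deposited table gives a log2 fold of 1.79 (p = 0.0153, adjusted p = 0.0780). No SNORA gene was listed in either table.

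The U2 and Y RNA copies were at low levels. U2 (ENSG00000278048), a copy of the spliceosomal U2 RNA, stood at 1.35 in the input and 6.62 in the IP, and the authors' deposited table gives it a log2 fold of 3.11 (p = 0.00726). Y_RNA (ENSG00000239040) had levels of 1.001 and 4.09, and the authors' deposited table gives a log2 fold of 2.84 (p = 0.0432, adjusted p = 0.186). Neither was listed in SiHa. Both names stand for many near-identical copies in the genome, so these values are uncertain.

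Of the 5S pseudogenes, RNA5SP283 had the largest difference between the tables of the shared members with values. RNA5SP283 (ENSG00000202474, chromosome 9, 62802320 to 62802438) stood at 10.9 in the input and at 22.8 in the IP in SiHa, and the authors' deposited table gives a log2 fold of 2.07 (p = 3.34e-05). In the knockout the levels were 1.73 and 17.1, and the authors' deposited table gives a log2 fold of 4.12 (p = 1.57e-06), the highest of all members there. The log2 ratio of knockout to SiHa was -0.41 for the IP level and -2.65 for the input level, so the fold differed mostly through the input. RNA5SP174 (ENSG00000199572, chromosome 4) had levels of 2.20 and 9.25 in SiHa and of 3.06 and 17.0 in the knockout. The authors' deposited tables give log2 folds of 3.08 (p = 0.000959) and 3.28 (p = 1.05e-05), and both of its levels were higher in the knockout. RNA5SP175 was listed in SiHa only, at 1.81 and 6.64, and the authors' deposited table gives a log2 fold of 2.88 (p = 0.00678). Copies of the 5S gene are near-identical, so the reads of these pseudogenes may come from others. RNA5SP283 also lies inside the lncRNA gene LINC01410 and overlaps LOC107987020, neither of which was listed under that name.

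The members without an RNA class added 1 shared gene. IGLV5-52 (ENSG00000211643), the immunoglobulin segment, had levels of 5.36 and 8.24 in SiHa and 2.86 and 7.97 in the knockout, and the authors' deposited tables give log2 folds of 1.63 (p = 0.0341) and 2.29 (p = 0.0123). Its adjusted p-values were above 0.05 in both, at 0.121 and 0.0645. IGLV5-52 lies inside the transcribed pseudogene BMS1P20, which was not listed under that name. AC005514.1 and AC092611.3 were listed in SiHa only, and the authors' deposited table gives 2.63 and 1.78 as their log2 folds.

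Few non-coding genes were listed in both cell lines. The 9 shared members were 24.3% of the SiHa members and 36.0% of the knockout members, whereas 57.1% of all genes listed in SiHa and 89.0% of those listed in the knockout were shared. The long RNA members had 4 of 28 SiHa genes shared and the small RNA members 4 of 6, while in the knockout it was 4 of 12 for both classes. Of the 7 genes that mark the set, LINC00106 was listed in SiHa only, SCARNA5, SCARNA21, SNORD62B, ESRG and AL161431.1 in the knockout only, and MIR1244-2 in both. The share moved with level in all genes, and the members were mostly low. Below the table's median level 4 of 27 SiHa members were shared (14.8%), against 40.2% of all genes there, and 6 of 18 knockout members (33.3%), against 81.8%. At or above it 5 of 10 SiHa members were shared, against 74.0% of all genes there, and 3 of 7 knockout members, against 96.2%. At or above the median fold 4 of 18 SiHa members were shared (22.2%), against 76.7% of all genes there, and below it 5 of 19 (26.3%), against 37.5%. In the knockout 5 of 16 were shared at or above the median fold (31.2%), against 93.3%, and 4 of 9 below it (44.4%), against 84.7%. The part of level, length and read assignment in these shares was not tested.

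For the shared members the log2 fold was higher in the knockout for 6 and in SiHa for 3, near the split of 1252 and 831 over all 2083 shared genes. The log2 ratio of SiHa to knockout fold had a median of -0.36 in the members, against -0.18 over all shared genes. With each table centred on its own median fold, the members' ratio was 0.029, so no direction is given. Among the 8 with values the ratios ran from -2.05 in RNA5SP283 to 0.40 in FGD5-AS1, and 6 of 8 had a lower input level in the knockout, near the 1569 of all 2083 shared genes that did. LINC00662, AC073896.4 and FGD5-AS1, the long RNAs among them, had both levels lower in the knockout. Over all 2083 shared genes, 1153 had a lower IP level in the knockout and 1569 a lower input level. These are levels set across tables that were scaled separately. A difference of scale and a difference in RNA level between the cell lines cannot be told apart from them.

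**Figure D5:**
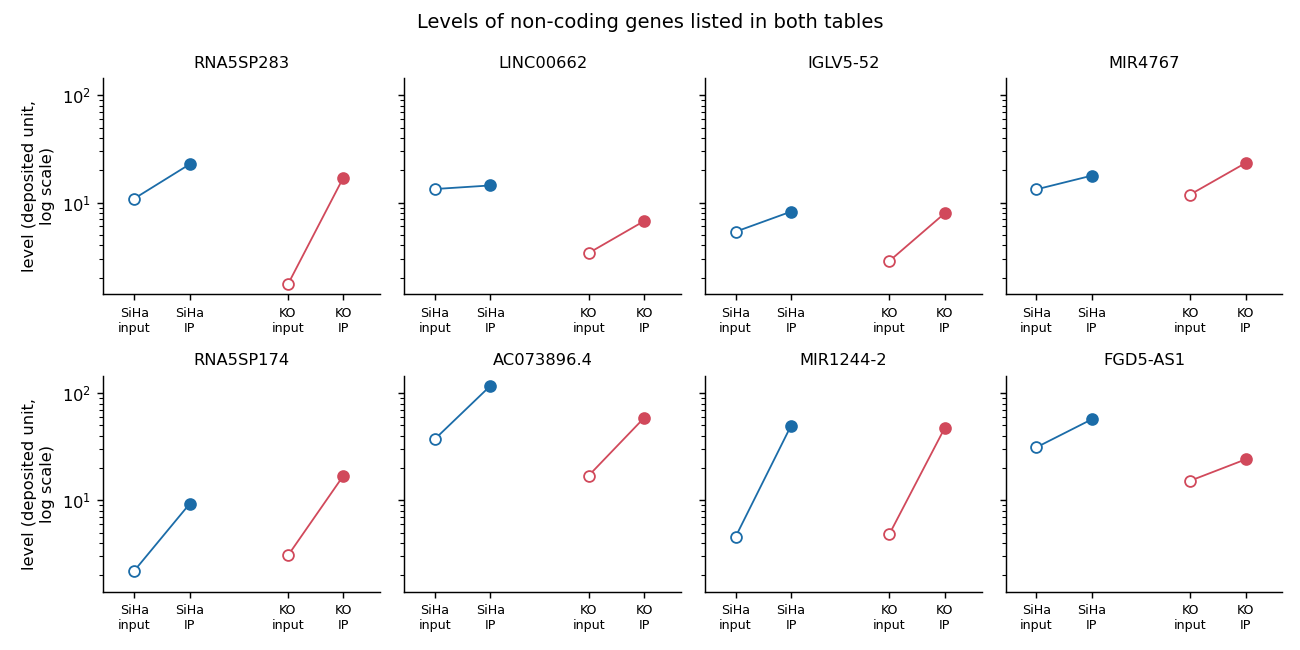
Input level (open) and IP level (filled) of the 8 non-coding genes with values that were listed in both tables, in SiHa (blue) and the knockout (red), on a log axis in the deposited unit. The line of RNA5SP283 is much steeper in the knockout, from 1.73 to 17.1, than in SiHa, from 10.9 to 22.8, and MIR1244-2 has nearly the same levels in both cell lines.

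Most non-coding RNAs of a list of well known ones were not in the tables. Of the 51 on it, which held MALAT1, NEAT1, TUG1, GAS5, KCNQ1OT1, the snoRNA host genes of the SNHG series, RMRP, RN7SK and TERC among others, NORAD alone was listed in SiHa and 0 in the knockout. A gene that is not listed either missed the thresholds or was not tested, so its level is not known and no depletion can be read from this. Of all genes tested, 27.0% were listed in SiHa and 21.2% in the knockout, but how many of the 51 were tested is not known. The list was drawn up with the tables' contents known, so the counts of 1 and 0 are not read against these shares. It leaves out PVT1 and the lincRNA whose values are not given, both of which were listed. Listed members such as FGD5-AS1, BACE1-AS, FENDRR and LINC00662 are not on it either.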

How the data were processed

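RIP-seq with a YTHDF3 antibody was made from SiHa cells and their YTHDF3 knockout, with 1 IP and 1 input library each. FastQC 0.11.7 and the build GRCh38 are named, per the submitters' processing notes, and for the aligner, the counting and the test the name is not given in the sources used here. The authors deposited 1 table per cell line with a log2 fold, a p-value, an adjusted p-value and a level per library, per the file headers. The unit of the deposited levels is unknown, and they were used as a signal because they are not whole numbers. The number of genes tested was taken as the number that brings p times it over adjusted p nearest to whole on average. Genes with very small p-values were left out of this step, which was checked on simulated data. Members, gene lists and alternatives were chosen with earlier results of these data known. Every member could be named, and 1 lincRNA's values are left out. Neighbours are RefSeq genes within 1 kb. The p-values quoted are the authors' and measure no spread between cultures. Alternatives were a limit on adjusted p, on level and on input, other biotype groups, pseudocounts of 1 and 5, and the fold without its constant. Python 3.11.15 and pandas 2.3.3 were used.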

Additional observations from a re-analysis of the deposited data

How the results depend on the processing

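No paired analysis was possible because each group had 1 library and no test was made. With an adjusted p of at most 0.05 the members numbered 21 in SiHa, and with a level at or above the table's median 10, 7 and 3 in SiHa, the knockout and both. Long RNA biotypes alone gave 12 in the knockout and 4 in both, and a log2 ratio of levels of at least 1 gave 20 in SiHa and 4 in both. The median log2 fold in SiHa (2.01) was 2.07 with either limit on adjusted p or level, 1.94 for long RNAs, 2.04 with PVT1 and RNU1-106P and 1.86 with an input level of at least 2. In the knockout (2.74) it was 2.96 with the limit on adjusted p, 2.60 with that on level, 2.54 for long RNAs, 2.82 with PVT1 and RNU1-106P, 2.37 with an input level of at least 2, and 2.67 without members that overlap a listed gene or without rRNA, TEC and immunoglobulin biotypes. Without the constant the medians were 1.001 and 1.92, with a pseudocount of 1 they were 0.88 and 1.52, and with 5 they were 0.57 and 0.87. All listed genes gave 0.68 in SiHa and 1.02 in the knockout with 5, and those at or above the median level 2.84 in the knockout, so under each of these settings the knockout members were below all listed genes and not above. The input limit, the wider rule and the narrower biotypes were chosen after seeing the data. The median log2 ratio of SiHa to knockout fold (-0.36) was -0.20 with the limit on adjusted p and -0.55 without the constants, and turned to 0.34 for genes at or above both median levels and to 0.029 with centred tables; the cause was not tested. Depth is unknown, and low levels limit most members.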

Other observations

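Some members lie next to each other in the genome. RNA5SP174 and RNA5SP175 are 2441 bases apart on chromosome 4, and both were listed in SiHa at similar log2 folds, 3.08 and 2.88 in the authors' deposited table, while RNA5SP174 alone was listed in the knockout. LINC00106 and ASMTL-AS1 are 1119 bases apart on chromosome X and were both listed in SiHa only, and the authors' deposited table gives log2 folds of 3.06 and 1.55. Their input levels there were 14.7 and 6.02.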
